A study of Mus musculus with 19 samples.

Results

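Receptor genes through which hormones of fat, gut, pancreas, pituitary, adrenal gland and gonads reach neurons were followed in single cells of the mouse lateral hypothalamic area (LHA). The rule that names them uses no measured value, although they were picked with earlier results of these data known: Lepr, Ghr, Prlr, Insr, Ghsr, Adipor1, Adipor2, Nr3c1 and Pgr, 9 of 52636 genes in the deposited count table. All 9 had counts in the cells kept here. The cells came from 7 male mice aged 6 to 8 weeks that carried Agrp-IRES-Cre and the Cre reporter allele Ai9, which makes AGRP neurons fluoresce red. There was 1 group and no treatment: every cell was a non-fluorescent cell body picked by hand from the LHA, whose borders were read from the red axons, so AGRP neurons themselves were not sampled by design. Cells were placed in 19 plates of 96 wells, which are the replicates. The labels do not say which mouse filled which plate, so the spread between plates may be smaller than that between mice, and the p-values measure the spread between plates alone.

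The 9 receptors fall into 3 kinds. Lepr, Ghr and Prlr, the receptors of leptin, growth hormone and prolactin, are cytokine-type receptors that signal through JAK kinases and STAT transcription factors. Insr, the insulin receptor, is a tyrosine kinase, Ghsr, the ghrelin receptor, couples to G proteins, and Adipor1 and Adipor2 are membrane receptors of the fat-cell hormone adiponectin. Nr3c1, the glucocorticoid receptor, and Pgr, the progesterone receptor, are transcription factors that steroids switch on inside the cell. The LHA is known for 2 peptide neurons that drive arousal and feeding, the orexin neurons marked by Hcrt and the melanin-concentrating hormone neurons marked by Pmch, and for GABA neurons, some of which carry Lepr.

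Of 1612 wells labelled LHA, 1534 had at least 1000 genes detected and were kept. The kept cells had a median of 38519.5 counts (3608 to 263078), and plate totals ran from 1835641 to 5067927 counts. Cells were split by marker genes alone. The Hcrt class, with at least 1% of its counts in Hcrt, held 1065 cells, and the Pmch class, by the same limit, held 68. The GABA class held 327 cells below both limits with at least 5 counts of Gad1 and Gad2, which encode the enzymes that make GABA, and the remaining class held 71 cells below them all. A further 3 cells passed both peptide limits and were left out. Genes outside the limits were checked against the names: Slc32a1, the vesicular GABA transporter, had a count in 62.4% of GABA class cells against 2.44% of the Hcrt class and 1.47% of the Pmch class, while Slc17a6, the vesicular glutamate transporter, had one in 88.5%, 70.6% and 69.0% of the Hcrt, Pmch and remaining classes and in 6.73% of the GABA class. Agrp stood at 5.23 counts per 1e6 counts (CPM) or less in these 4 classes. The shares were taken at full depth, which differed between classes. Pooled Slc17a6 stood at 130, 53.0, 218 and 22.7 CPM in the Hcrt, Pmch, remaining and GABA classes. The Pmch class also had Gad1 in 98.5% of its cells.

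The remaining class was the least uniform. Of its 71 cells 9 did not pass a check on pan-neuronal genes, against 13 of 1065 Hcrt class cells, 2 of 327 GABA class cells and 0 of 68 Pmch class cells. The summed level of 7 oligodendrocyte markers ran from 31.7 to 10199 CPM over its plates, with a median of 109.5, against 41.4 to 1003 CPM and a median of 98.7 in the GABA class and 35.9 to 1652 CPM and a median of 61.4 in the Hcrt class. In the Pmch class these markers ran from 10.4 to 77.6 CPM with Mog at 0. Over all its cells the remaining class also had summed levels of 75.8 CPM for oligodendrocyte precursor, 74.7 CPM for mural and 40.5 CPM for astrocyte markers, against at most 13.5, 1.79 and 4.33 CPM in the other 3 classes. Of its 6 astrocyte markers 4 were at 0 (Aqp4, Gfap, Aldh1l1 and Agt), as were 3 of 5 mural markers (Rgs5, Myh11 and Vtn). The receptors called in the Hcrt comparisons below were also called in neurons alone. That fit changed few cells, with 319 GABA, 61 Pmch and 50 remaining class cells in place of 321, 61 and 59. It keeps neurons that hold some RNA of other cell types, so the part of such RNA in the receptor levels was not tested.

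Depth differed between the classes, with medians of 45722 counts in the Hcrt class, 59063 in the Pmch class, 24486 in the GABA class and 24969 in the remaining class. A share of cells with a count rises with depth, so each cell was thinned to 18000 counts before shares were compared. This left 1003 Hcrt, 67 Pmch, 253 GABA and 56 remaining class cells and left out 62, 1, 74 and 15. Hcrt took a median of 13.5% of Hcrt class counts and Pmch 17.7% of Pmch class counts, so these thinned cells kept fewer counts of other genes. With both genes left out before thinning, Hcrt class shares were 35.7% for Ghr, 27.3% for Nr3c1 and 17.8% for Insr, beside 30.0%, 21.7% and 18.1%. Adipor1 then had a count in 59.0% of Hcrt and 68.2% of Pmch class cells, and Adipor2 in 40.7% and 30.3%. Levels are given as CPM of the counts summed per plate and class, on plates with at least 3 cells of the class (19 Hcrt, 13 Pmch, 16 GABA and 10 remaining class plates). Shares carry exact (Clopper-Pearson) 95% intervals, which cover counting error only. The 4 sets of 96 well barcodes were each used on 4 to 5 plates, so barcodes recur between plates by construction.

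In total 4 receptors were higher in the GABA class than in the Hcrt class and 3 were lower. Lepr, Prlr, Nr3c1 and Pgr were higher and Ghr, Adipor1 and Adipor2 were lower, while Insr and Ghsr did not pass the test (edgeR quasi-likelihood test with plate as block, adjusted p under 0.05, 16 plates, 321 against 833 cells). Over all 16628 genes tested, 29.1% were called in either direction, 10.7% higher and 18.4% lower. All 9 receptors passed the filter on summed counts in this comparison. The scaling sets that split: 1787 genes were higher and 3055 lower with TMM scaling as planned, and 2522 and 2167 with TMM factors taken from genes of at least 1000 counts. This second scaling moved the median log2 fold change of all genes from -0.13 to 0.03, and it left 6 of the 7 receptor calls standing, all but Adipor2.

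**Figure D1:**
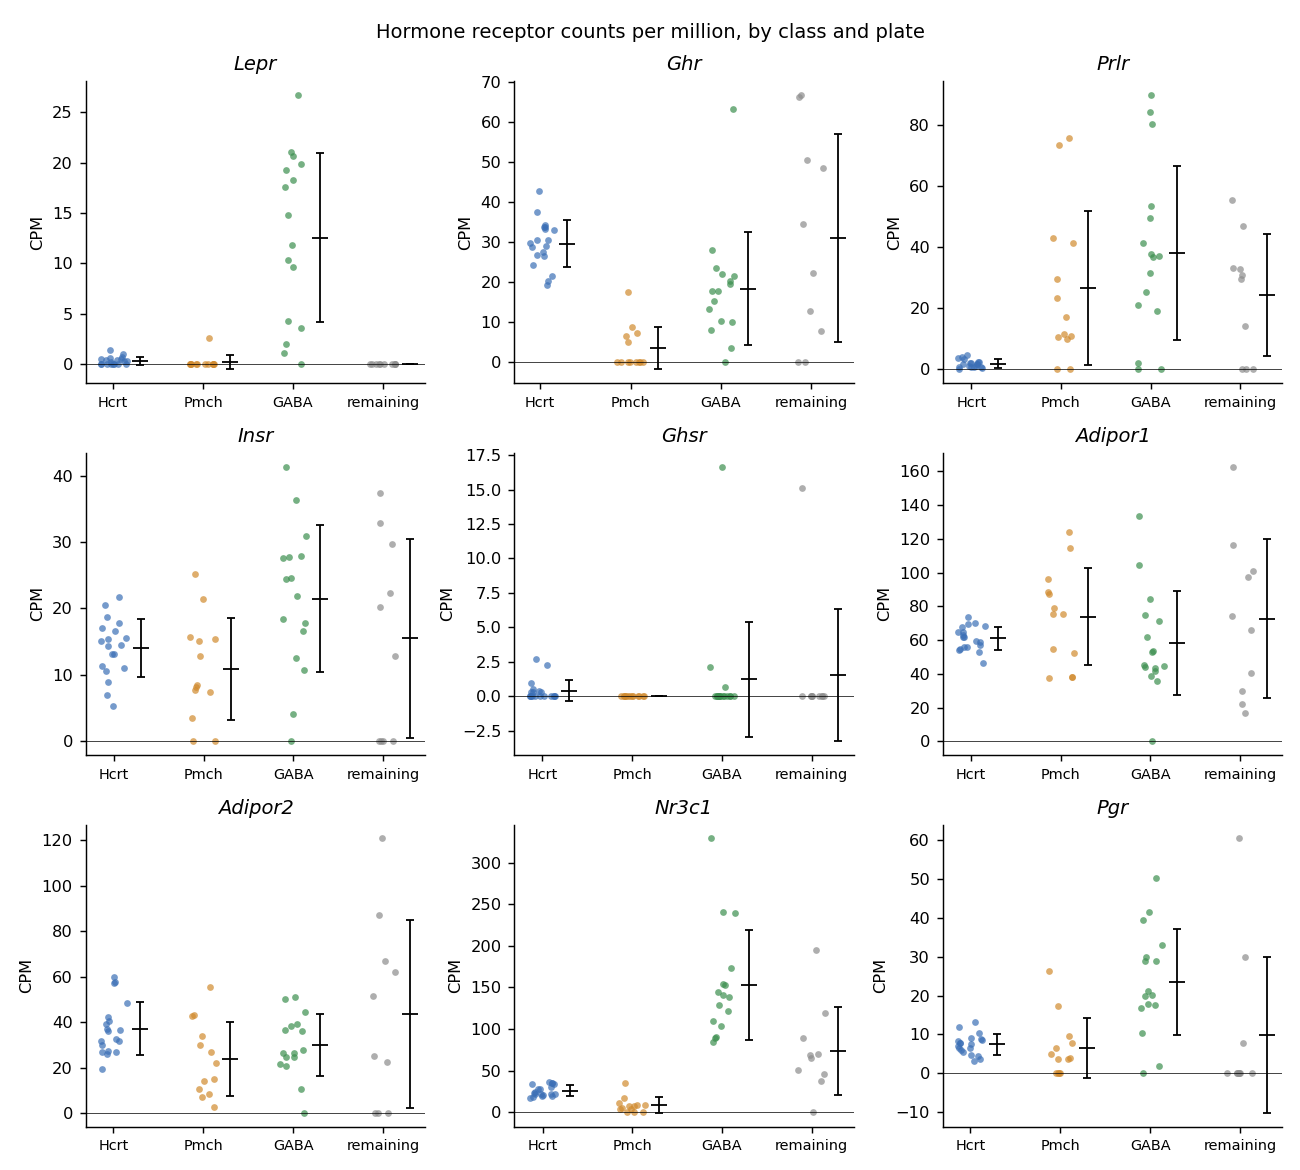
CPM of each receptor (vertical axis) in the Hcrt, Pmch, GABA and remaining classes, 1 point per plate with at least 3 cells of the class; the black bar and whiskers are the mean and SD over plates, and each panel has its own linear scale. Nr3c1 in the GABA class ran from 84.3 to 329 CPM, above all Hcrt class plates, and Lepr was near 0 outside the GABA class.

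Lepr, on chromosome 4 (chr4:101717404-101815352, plus strand, GRCm38), was rare and most of it lay in the GABA class. The kept cells held 122 Lepr counts in 58 cells, and 99 of the counts lay in 41 of 327 GABA class cells. Of these 41 cells 24 had 1 count and 6 had at least 5, with a maximum of 12. On the 16 plates compared, the GABA class had a lowest value of 0, a median of 13.3 and a highest of 26.7 CPM, and the Hcrt class 0, 0.275 and 1.46 CPM. The GABA class was higher on 15 of the 16 plates, and the ranges overlap at their lower end. The fold change was 25.1 (log2 4.65 ± 0.59 SE, edgeR adjusted p = 3.24e-09). At equal depth 26 of 253 GABA class cells (10.3%, interval 6.82 to 14.7%) had a Lepr count against 3 of 1003 Hcrt class cells (0.299%, 0.0617 to 0.872%). No Pmch or remaining class cell had one, which allows shares of up to 4.48% and 5.36% by a limit of 3 cells, and up to 5.36% and 6.38% by the exact interval. Without thinning the Pmch class held 1 Lepr count, and the ratio of its summed CPM to that of the Hcrt class was 0.614 with a counting interval of 0.0148 to 3.84, so no difference between these 2 was detectable.

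Nr3c1 (chr18:39410545-39519421, minus strand) was higher in the GABA class than in the Hcrt class on every plate and lower in the Pmch class. In the GABA class it ran from 84.3 to 329 CPM over 16 plates with a median of 140, and in the Hcrt class of the same plates from 16.9 to 35.8 CPM with a median of 23.6. These ranges did not overlap. The GABA class was 4.08-fold higher (log2 2.03 ± 0.16 SE, edgeR adjusted p = 3.02e-16) and higher on 16 of 16 plates. The Pmch class lay on the other side of the Hcrt class: over 13 plates its lowest, median and highest values were 0, 7.17 and 35.0 CPM against 16.9, 24.2 and 34.9 CPM. It was lower on 12 of 13 plates by 3.57-fold (log2 -1.84 ± 0.41 SE, edgeR adjusted p = 3.70e-04). At equal depth a Nr3c1 count was found in 60.5% of GABA class cells (54.2 to 66.5%), 42.9% of remaining class cells (29.7 to 56.8%), 21.7% of Hcrt class cells (19.2 to 24.4%) and 10.4% of Pmch class cells (4.30 to 20.3%). In the GABA class 195 of 327 cells had the transcript, with a median of 5 counts and a maximum of 67.

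Prlr (chr15:10177238-10349180, plus strand) was low in Hcrt class cells and higher in each of the other 3 classes. Over the 19 plates 61 of 1065 Hcrt, 23 of 68 Pmch, 80 of 327 GABA and 13 of 71 remaining class cells had a Prlr count, which is 2.07, 25.6, 38.2 and 25.8 CPM of the summed counts. On 16 shared plates the GABA class had a lowest, median and highest value of 0, 36.9 and 90.0 CPM against 0.291, 1.45 and 3.73 CPM in the Hcrt class. It was higher on 14 of 16 plates by 15.6-fold (log2 3.96 ± 0.37 SE, edgeR adjusted p = 2.42e-13). The Pmch class ran from 0 to 75.8 CPM with a median of 17.2 against 0.468 to 4.88 CPM and a median of 1.83. It was higher on 11 of 13 plates by 10.4-fold (log2 3.38 ± 0.53 SE, edgeR adjusted p = 8.44e-07). In both comparisons the ranges overlapped only at the low end of the GABA and Pmch class plates. At equal depth 21.7% of GABA (16.8 to 27.3%), 19.4% of Pmch (10.8 to 30.9%), 14.3% of remaining (6.38 to 26.2%) and 3.29% of Hcrt class cells (2.28 to 4.59%) had a Prlr count.

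Between the 3 classes with more Prlr no order was shown on CPM. GABA and Pmch class sums on 12 shared plates averaged 31.5 ± 24.2 and 22.8 ± 21.9 CPM (SD over plates, n = 12; two-sided sign-flip permutation test, p = 0.439, unadjusted, 1 of 54 such tests on CPM over all receptors and pairs of classes). The share of cells at equal depth on 9 plates was 19.02 ± 9.96% in the GABA class and 8.52 ± 10.2% in the Pmch class (SD, n = 9; exact sign-flip permutation test, p = 0.0234, 1 of 54 on shares).

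The starts of the receptor genes that were higher in the GABA class are shown, where the reference table holds them, so that the genes whose levels differ by class can be set beside the letters at their starts. The windows are the 250 bases before the RefSeq start sites (GRCm38.p6), cut for print where an exon of the same gene begins. Entries were found for 7 of the 9 genes, in 12 windows. Insr and Nr3c1 had no entry. Capitals mark 2 motifs searched on both strands, TTCNNNGAA, a palindrome known to be bound by STAT factors, and AGAACA or its reverse complement TGTTCT, the half-site of the glucocorticoid and progesterone receptors. The windows are Lepr chr4:101717157-101717403, Prlr start 1 chr15:10176988-10177237, Prlr start 2 chr15:10223656-10223905, Prlr start 3 chr15:10293401-10293650 and Pgr chr9:8899583-8899832, all on the plus strand.
Lepr: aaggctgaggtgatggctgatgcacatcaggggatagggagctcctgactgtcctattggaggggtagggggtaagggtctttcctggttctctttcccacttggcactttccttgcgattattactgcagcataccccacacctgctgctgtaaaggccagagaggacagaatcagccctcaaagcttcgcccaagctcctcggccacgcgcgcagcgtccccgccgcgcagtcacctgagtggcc
Prlr start 1: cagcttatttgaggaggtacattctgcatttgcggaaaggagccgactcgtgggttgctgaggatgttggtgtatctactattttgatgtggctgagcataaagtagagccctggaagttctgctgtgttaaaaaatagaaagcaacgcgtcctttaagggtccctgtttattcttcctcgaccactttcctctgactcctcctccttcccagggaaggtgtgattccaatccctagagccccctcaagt
Prlr start 2: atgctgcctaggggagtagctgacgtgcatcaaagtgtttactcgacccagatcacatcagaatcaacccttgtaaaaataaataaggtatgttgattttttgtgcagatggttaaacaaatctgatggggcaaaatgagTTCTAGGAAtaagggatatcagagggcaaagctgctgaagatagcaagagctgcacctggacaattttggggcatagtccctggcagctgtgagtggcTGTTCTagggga
Prlr start 3: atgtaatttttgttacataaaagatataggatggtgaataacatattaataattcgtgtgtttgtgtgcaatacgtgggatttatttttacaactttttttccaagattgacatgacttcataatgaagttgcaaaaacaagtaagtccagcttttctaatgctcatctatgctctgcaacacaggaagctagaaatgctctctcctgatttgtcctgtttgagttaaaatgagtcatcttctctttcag
Pgr: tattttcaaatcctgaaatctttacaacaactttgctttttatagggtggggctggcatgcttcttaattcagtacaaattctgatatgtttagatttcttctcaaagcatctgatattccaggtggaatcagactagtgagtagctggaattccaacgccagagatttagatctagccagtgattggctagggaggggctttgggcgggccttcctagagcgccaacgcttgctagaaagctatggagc
A second Lepr window began within an exon of Lepr and is not printed. The motifs were searched in all 250 bases of each of the 12 windows, as in those of all genes, before any trimming for print. Only the window of the second Prlr start held either motif, and it held 1 of each, where 7.02% of the 32851 windows of all genes held TTCNNNGAA and 16.1% held AGAACA or TGTTCT. The full palindromic hormone response element, with both half-sites facing each other across 3 bases, was found in 0.00913% of all windows and in none of these. A match of letters is a description and was not tied to the counts, which do not tell the start sites apart.

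Pgr (chr9:8899833-8968611, plus strand) was also higher in the GABA class, by a smaller fold than Nr3c1. Over 16 plates it had a lowest, median and highest value of 0, 20.7 and 50.2 CPM in the GABA class and 3.02, 7.84 and 13.3 CPM in the Hcrt class. The GABA class was higher on 14 of 16 plates, the ranges overlapped, and the fold change was 2.21 (log2 1.14 ± 0.32 SE, edgeR adjusted p = 0.00440). In 1 fit over all 4 classes the adjusted p was 0.0638 at a log2 fold change of 1.04. At equal depth 18.2% of GABA class cells (13.6 to 23.5%) and 9.27% of Hcrt class cells (7.55 to 11.2%) had a Pgr count. In the Pmch class Pgr stood at 6.41 ± 7.71 CPM against 7.21 ± 2.09 CPM in the Hcrt class (SD, n = 13 plates), with a log2 fold change of -0.57 ± 0.53 SE (edgeR adjusted p = 0.461).

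Ghr (chr15:3317760-3583492, minus strand) had the reverse order, with the Hcrt class above the GABA and Pmch classes. The Hcrt class ran from 19.2 to 42.9 CPM with a median of 29.6 on the 16 plates shared with the GABA class, whose lowest, median and highest values were 0, 17.8 and 63.3 CPM. The GABA class was lower on 15 of 16 plates by 2.49-fold (log2 -1.32 ± 0.24 SE, edgeR adjusted p = 1.10e-05), and 1 GABA plate lay above all Hcrt values. In the Pmch class Ghr was near 0: its highest plate reached 17.4 CPM, below the lowest Hcrt class plate of 19.2 CPM, and its median plate was at 0. It was lower on 13 of 13 plates by 9.55-fold (log2 -3.26 ± 0.46 SE, edgeR adjusted p = 8.74e-08). Over the genome 27.1% of 15480 genes were called between the Pmch and Hcrt classes, 7.18% higher and 19.9% lower, or 1112 and 3085 genes, which became 1499 and 2047 under the second scaling with a median log2 fold change of -0.23 in place of -0.41. Of the 7 receptors tested there Prlr was higher, and Ghr, Nr3c1 and Adipor2 lower. At equal depth 30.0% of Hcrt (27.2 to 33.0%), 32.1% of remaining (20.3 to 46.0%), 13.04% of GABA (9.15 to 17.8%) and 5.97% of Pmch class cells (1.65 to 14.6%) had a Ghr count. Ghr and Prlr, 2 receptors of one family, stood in opposite order in Hcrt and Pmch class cells. The GABA, Pmch and remaining class comparisons share their Hcrt class cells, so they are not independent of each other.

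**Figure D2:**
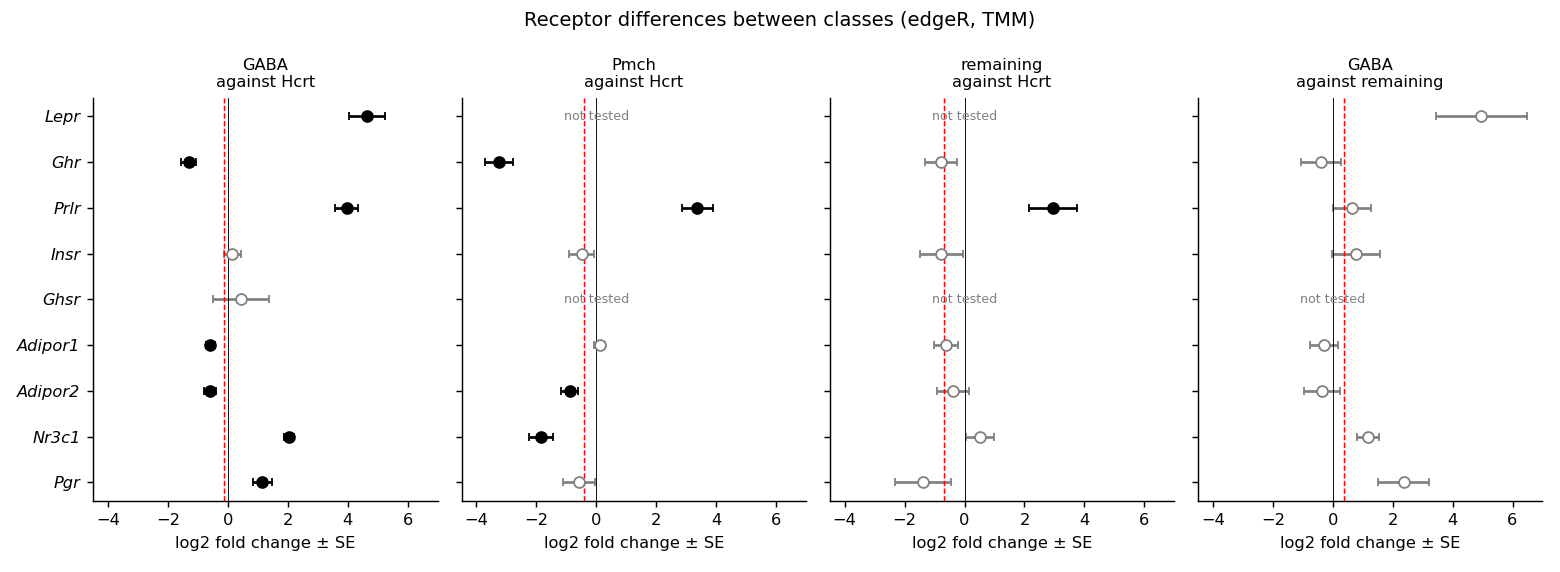
Log2 fold change ± SE of each receptor in the 4 comparisons (edgeR, TMM scaling, plate as block); filled points have an adjusted p under 0.05, open points do not, and the dashed red line is the median of all genes tested in that comparison. Prlr was higher than in the Hcrt class in 3 of 3 comparisons with it, while Nr3c1 lay above 0 in the GABA class at 2.03 and below it in the Pmch class at -1.84.

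Insr (chr8:3122061-3279617, minus strand) was found at similar shares in the classes and was called by edgeR in no comparison. At equal depth it was detected in 18.1% of Hcrt (15.8 to 20.7%), 16.4% of Pmch (8.49 to 27.5%), 15.4% of GABA (11.2 to 20.5%) and 14.3% of remaining class cells (6.38 to 26.2%). On 16 plates its lowest, median and highest values were 0, 23.2 and 41.4 CPM in the GABA class and 5.28, 15.0 and 21.8 CPM in the Hcrt class. The log2 fold change was 0.15 ± 0.27 SE (edgeR adjusted p = 0.749), with the GABA class higher on 10 of 16 plates. The plate test on CPM gave p = 0.0261 (two-sided permutation test, unadjusted) for 21.5 ± 11.1 against 14.3 ± 4.69 CPM (SD, n = 16), and on shares p = 0.868. Against the Hcrt class the Pmch class had a log2 fold change of -0.49 ± 0.43 SE (edgeR adjusted p = 0.428).

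Ghsr (chr3:27371351-27378010, plus strand) was close to the limit of detection in all classes. The kept cells held 29 Ghsr counts in 16 cells, 17 counts in 9 Hcrt class cells, 8 in 5 GABA, 4 in 2 remaining and 0 in the 68 Pmch class cells. The 3 highest Hcrt class cells held 64.7% of the class's counts. A sum of 3 counts in the Pmch class would be 0.686 CPM, above the 0.317 CPM of the Hcrt class, so the absence of counts there sets no difference. In the GABA class 1 plate held 16.7 CPM and the median plate 0, and the log2 fold change against the Hcrt class was 0.45 ± 0.94 SE (edgeR adjusted p = 0.792).

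The adiponectin receptors Adipor1 (chr1:134415378-134433351, plus strand) and Adipor2 (chr6:119353150-119417704, minus strand) were found widely in all 4 classes. At equal depth Adipor1 was detected in 56.4% of Hcrt, 56.7% of Pmch, 60.7% of remaining and 41.1% of GABA class cells. Adipor2 was detected in 38.5%, 34.3%, 39.3% and 24.5% of the same classes in that order. The counting interval of Adipor1 was 35.0 to 47.4% in the GABA and 53.3 to 59.5% in the Hcrt class, with cells taken as independent. Over 13 plates the Adipor1 shares were 44.7 ± 16.2% and 54.1 ± 7.77% in these classes (SD, two-sided sign-flip permutation test, p = 0.0562, unadjusted). Adipor1 levels on 16 plates were 58.1 ± 30.9 CPM in the GABA class and 59.99 ± 7.03 CPM in the Hcrt class (SD, n = 16), a difference that the plate test did not find (p = 0.797, two-sided permutation test). The edgeR fit, which weights plates by their counts and scales by TMM, gave a log2 fold change of -0.59 ± 0.16 SE (adjusted p = 0.00255), or -0.41 with adjusted p = 0.0393 when scaled by genes of at least 1000 counts. The GABA class was lower on 10 of 16 plates.

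Adipor2 was called lower in both the GABA and the Pmch class than in the Hcrt class, and neither call withstood all settings. In the GABA class it was 30.0 ± 13.7 against 33.3 ± 7.35 CPM (SD, n = 16 plates; log2 -0.60 ± 0.20 SE, edgeR adjusted p = 0.0193), and the adjusted p was 0.110 with the second scaling, 0.0521 without replicate 11 and 0.0602 without replicate 15. In the Pmch class it was 24.0 ± 16.3 against 35.8 ± 9.72 CPM (SD, n = 13 plates; log2 -0.88 ± 0.29 SE, edgeR adjusted p = 0.0164) and lower on 10 of 13 plates, with an adjusted p of 0.0731 under the second scaling. Adipor1 did not pass in the Pmch class (log2 0.12 ± 0.18 SE, edgeR adjusted p = 0.674).

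**Figure D3:**
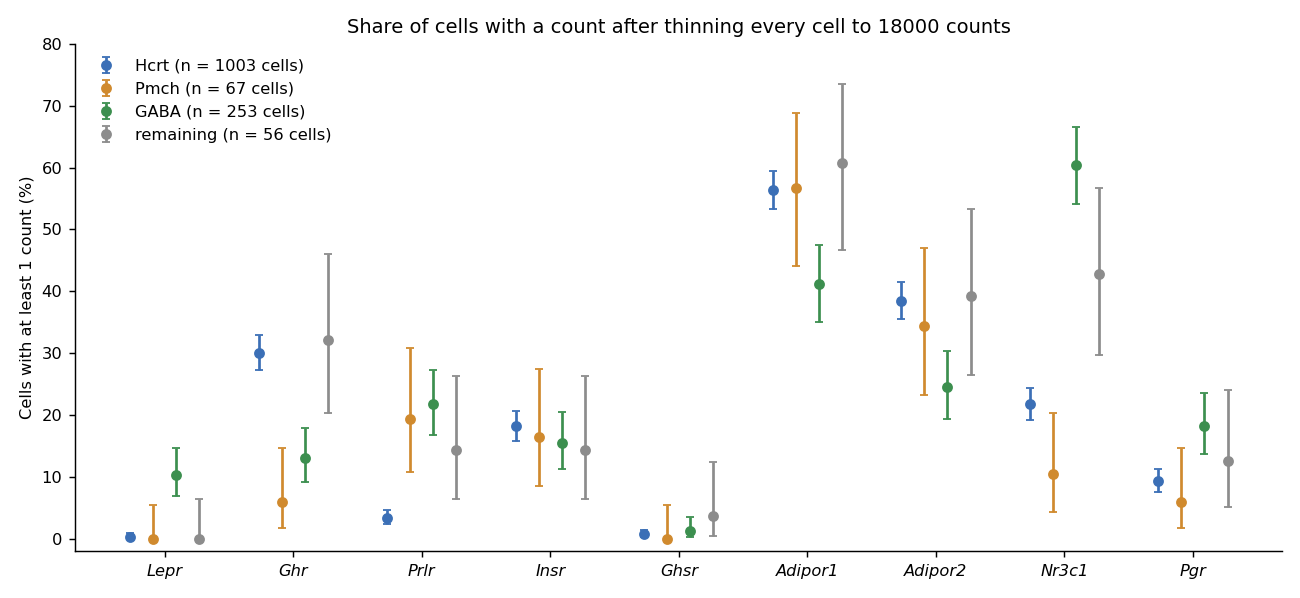
Percent of cells with at least 1 count of each receptor after every cell was thinned to 18000 counts, by class, with exact 95% intervals for counting error. Lepr was detected in 10.3% of GABA class cells and 0.299% of Hcrt class cells, and Insr in 14.3 to 18.1% of cells of every class.

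In the remaining class Prlr was the only receptor called against the Hcrt class. It ran from 0 to 55.5 CPM over 10 plates with a median of 30.4, against 0.749 to 3.73 CPM and a median of 1.07. It was higher on 7 of 10 plates by 7.71-fold (log2 2.95 ± 0.81 SE, edgeR adjusted p = 0.00645), but in thinned cells, on 7 plates, the adjusted p was 0.0720 at a log2 fold change of 2.85. Over all genes 14.7% of 14335 were called, 1.81% higher and 12.8% lower, and this split turned with the scaling, from 259 higher and 1842 lower to 338 and 283 under the second scaling, which moved the median of all genes from -0.69 to -0.03. Nr3c1 averaged 74.0 ± 52.8 CPM in the remaining class against 26.2 ± 6.69 CPM (SD, n = 10 plates), was higher on 9 of 10 plates and did not pass (log2 0.52 ± 0.47 SE, edgeR adjusted p = 0.471; 1.20 with adjusted p = 0.124 under the second scaling; 1.19 with adjusted p = 0.0282 by DESeq2). The plate test on its CPM gave p = 0.00625 (two-sided permutation test, unadjusted). Insr, Ghr, Pgr, Adipor1 and Adipor2 had log2 fold changes of -0.77, -0.78, -1.38, -0.63 and -0.39 that did not pass. Under the second scaling these were -0.11, -0.12, -0.76, 0.05 and 0.26 and did not pass either. Their mean CPM over plates was not lower than in the Hcrt class, at 15.5, 31.0, 9.82, 72.7 and 43.6 against 12.3, 30.0, 6.86, 58.7 and 30.6. Lepr, with 0 against 3 counts, and Ghsr, with 3 against 12, were below the filter.

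Set directly against the remaining class on 10 plates (257 against 59 cells), the GABA class had no receptor past the threshold among the 8 tested, where 1.58% of 12955 genes were called, 1.02% higher and 0.563% lower. The 132 higher and 73 lower genes became 78 and 84 under the second scaling and 190 and 296 without plate as block. By edgeR's unadjusted p, Lepr (0.00149), Nr3c1 (0.00182) and Pgr (0.00684) were under 0.05. Lepr had 61 counts in the GABA class and 0 in the remaining class and was higher on 10 of 10 plates (edgeR adjusted p = 0.0765; 0.0168 without plate as block; 0.00196 in 1 fit over all 4 classes; DESeq2 gave no adjusted p). Over all cells of both classes, with 99 counts against 1, the ratio of summed CPM was 20.4 with a counting interval of 3.57 to 812. Nr3c1 was 151 ± 76.8 against 74.0 ± 52.8 CPM (SD, n = 10 plates) and higher on 9 of 10 plates (log2 1.17 ± 0.37 SE, edgeR adjusted p = 0.0865; 0.0486 without plate as block; 0.0263 in neurons only; 8.63e-04 in 1 fit over all 4 classes). Pgr was 28.8 ± 12.2 against 9.82 ± 20.2 CPM (SD, n = 10 plates), with 1 remaining class plate at 60.5 CPM and a median plate of 0 (log2 2.36 ± 0.86 SE, edgeR adjusted p = 0.173). Prlr differed by 0.64 ± 0.63 SE on the log2 scale (adjusted p = 0.717).

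Genes that work with the cytokine-type receptors were then read from a list of 17 JAK, STAT, SOCS and phosphatase genes. Between GABA and Hcrt classes 4 of 17 were higher and 3 lower, with a median log2 fold change of 0.02 beside -0.13 for all genes. The share of all genes called in this comparison was 29.1%. The 2 STAT5 genes, which carry signals of the growth hormone and prolactin receptors, were both lower in the GABA class: Stat5b at 32.7 ± 20.8 against 82.3 ± 13.3 CPM (SD, n = 16; log2 -1.74 ± 0.16 SE, edgeR adjusted p = 9.39e-14) and Stat5a at 2.04 ± 4.06 against 7.59 ± 3.96 CPM (log2 -2.70 ± 0.53 SE, edgeR adjusted p = 3.73e-05), each lower on 16 of 16 plates. Both were lower in the Pmch class too, with log2 fold changes of -2.63 for Stat5b and -3.21 for Stat5a. In that comparison 1 of 17 was higher, Socs2, an inhibitor of growth hormone signalling (log2 1.72 ± 0.32 SE, edgeR adjusted p = 2.30e-05), and 2 lower, with a median of -0.12 beside -0.41. There 27.1% of all genes were called. Tyk2, a JAK kinase, was higher in the GABA class (log2 1.30 ± 0.51 SE, edgeR adjusted p = 0.0460). Against the remaining class, Stat3, the main STAT of leptin signalling, was higher in the GABA class on 10 of 10 plates (82.5 ± 39.4 against 18.6 ± 14.5 CPM; log2 2.22 ± 0.53 SE, edgeR adjusted p = 0.00716).

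In the insulin list of 18 genes, 4 were higher and 2 lower in the GABA class than in the Hcrt class, and 3 were higher and 4 lower in the Pmch class. Of all genes 29.1% and 27.1% were called in these comparisons. Irs4, an insulin receptor substrate of the hypothalamus, was 99.9 ± 38.3 CPM in the GABA and 14.4 ± 4.43 CPM in the Hcrt class (SD, n = 16 plates; log2 2.22 ± 0.18 SE, edgeR adjusted p = 2.40e-15) and higher on 16 of 16 plates. In the Pmch class it stood at 0.880 ± 1.78 CPM, lower on 13 of 13 plates (log2 -4.27 ± 0.67 SE, edgeR adjusted p = 7.87e-07). Insr itself was not called by edgeR in either comparison. Igf1r, the receptor of insulin-like growth factor 1, was lower in the GABA class (28.6 ± 16.7 against 59.4 ± 10.2 CPM; log2 -1.64 ± 0.20 SE, edgeR adjusted p = 1.28e-09). Grb14, an adaptor that inhibits the insulin receptor, was lower in the GABA (log2 -1.17) and the Pmch class (-2.19). Pik3r1, a regulatory subunit of PI3 kinase, was higher in the Pmch class on 13 of 13 plates (log2 1.87 ± 0.30 SE, edgeR adjusted p = 1.20e-06). The median of the list was 0.23 beside -0.13 for all genes in the GABA and -0.17 beside -0.41 in the Pmch comparison.

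Calls made up 29.1% of all genes between the GABA and Hcrt classes and 27.1% between the Pmch and Hcrt classes. Among chaperones, cofactors and known targets of the glucocorticoid receptor, 3 of 17 tested were higher and 6 lower in the GABA class. Their median was -0.18 beside -0.13. Nr3c1 itself was higher there, and a link between its level and these genes was not tested. Ncoa2, a coactivator of steroid receptors, was higher (34.5 ± 23.0 against 10.4 ± 3.79 CPM, SD, n = 16; log2 1.12 ± 0.29 SE, edgeR adjusted p = 0.00202). The target genes Dusp1 (log2 -1.15 ± 0.27 SE, edgeR adjusted p = 5.38e-04) and Per1 (-1.09 ± 0.30 SE, adjusted p = 0.00371) were lower; Dusp1 had mean CPM of 37.3 and 37.4 in the 2 classes, with an SD of 59.1 in the GABA class, and was higher in the GABA class on 3 of 16 plates. In the Pmch class, where Nr3c1 was lower, 1 of 17 was higher and 5 lower: Sgk1, another target, was higher on 12 of 13 plates (39.6 ± 37.8 against 11.2 ± 4.42 CPM; log2 1.54 ± 0.34 SE, edgeR adjusted p = 3.97e-04), while Per1 (log2 -2.29) and the co-chaperone Stip1 (-1.09) were lower.

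Of the other steroid and nuclear receptors 8 of 21 tested were higher and 2 lower in the GABA class. Their median was 0.67 beside -0.13 for all genes, of which 29.1% were called. Of 20 tested in the Pmch class 1 was higher and 5 lower. There the median was -0.17 beside -0.41, with 27.1% of all genes called. The retinoic acid receptors Rarb (log2 3.60 ± 0.75 SE, edgeR adjusted p = 1.35e-04; 52 against 6 counts) and Rara (3.13 ± 0.77 SE, adjusted p = 0.00107) were higher in the GABA class and Vdr, the vitamin D receptor, lower (-2.18 ± 0.76 SE, adjusted p = 0.0227). Rorb, a retinoid-related orphan receptor, was 94.2 ± 23.5 CPM in the Hcrt and 1.20 ± 1.74 CPM in the Pmch class (SD, n = 13; log2 -6.26 ± 0.36 SE, edgeR adjusted p = 7.84e-22). Esr1, the estrogen receptor alpha, had 0 counts in the Pmch class against 2.85 ± 2.18 CPM in the Hcrt class (SD, n = 13), at least 3.83-fold lower against 3 counts over the class, and was higher in the GABA than in the remaining class (15.2 ± 8.57 against 0.504 ± 1.60 CPM, n = 10; edgeR adjusted p = 0.0349).

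Partners of Ghsr and the adiponectin receptors formed a list of 17 genes. In the GABA class 3 of 16 tested were higher and 1 lower (median 0.04 beside -0.13 for all genes). In the Pmch class 4 were higher and 0 lower (median 0.11 beside -0.41). Counted in either direction, this was no more than the shares of all genes called, 29.1% and 27.1%. Cdh13, which encodes T-cadherin, a surface protein that binds adiponectin, was higher in every class than in the Hcrt class: 222 ± 82.4 against 11.4 ± 4.77 CPM in the GABA class (SD, n = 16; log2 3.8 ± 0.18 SE, edgeR adjusted p = 4.41e-24), 63.6 ± 54.0 CPM in the Pmch class (1.95 ± 0.48 SE, adjusted p = 0.00374) and 71.9 ± 63.7 CPM in the remaining class (1.53 ± 0.56 SE, adjusted p = 0.0489). Paqr4, of the same protein family as the Adipor genes, was higher in the GABA (log2 1.29) and Pmch class (1.46), Prkab2, a subunit of AMP kinase, was higher in the GABA class (1.74) and Paqr8, a membrane progestin receptor, in the Pmch class (1.89).

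Among other receptors of circulating metabolic hormones 6 of 16 tested were higher and 5 lower in the GABA class (median 0.12 beside -0.13 for all genes, of which 29.1% were called). Of 15 tested in the Pmch class 0 were higher and 7 lower (median -0.94 beside -0.41, with 27.1% of all genes called). Mc4r, the melanocortin 4 receptor, was 80.2 ± 35.5 against 0.494 ± 0.770 CPM (SD, n = 16 plates; log2 6.61 ± 0.36 SE, edgeR adjusted p = 1.03e-22), and Calcr, the calcitonin receptor that also answers amylin, 123 ± 71.5 against 1.03 ± 1.10 CPM (6.21 ± 0.28 SE, adjusted p = 1.19e-26). Npy4r, a receptor of pancreatic polypeptide, had 149 counts in the Hcrt class and 0 in the GABA class, at least 10.6-fold lower against 3 counts over the class. Cckar, a cholecystokinin receptor, was lower in the Pmch class (1.24 ± 3.93 against 25.1 ± 7.97 CPM, n = 13; log2 -4.75 ± 0.58 SE, edgeR adjusted p = 1.78e-09), as was Il6ra (-3.61), the receptor of interleukin 6, and Calcr had 0 counts there against 41, at least 1.55-fold lower. Against the remaining class Mc4r, Mc3r and Calcr were higher in the GABA class (log2 4.71, 4.16 and 2.84; edgeR adjusted p = 1.94e-06, 0.00165 and 4.30e-04).

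In the 2 comparisons with the remaining class 14.7% and 1.58% of all genes were called. Against the Hcrt class 0 were higher and 3 lower of 16 cytokine signalling genes, 1 and 1 of 18 insulin genes, 0 and 5 of 17 glucocorticoid receptor genes, 0 and 2 of 18 nuclear receptors, 1 and 0 of 16 partner genes and 2 and 2 of 15 other receptors. The GABA class against the remaining class gave 1 higher and 0 lower in the cytokine, insulin, nuclear receptor and partner lists, 0 and 0 in the glucocorticoid list and 3 and 0 among 11 other receptors. Irs1, a further insulin receptor substrate, was higher in the remaining than in the Hcrt class (21.1 ± 21.1 against 1.49 ± 1.06 CPM, n = 10; log2 2.73 ± 0.88 SE, edgeR adjusted p = 0.0231), and so was Sstr2, a somatostatin receptor (25.2 ± 23.4 against 0.596 ± 1.19 CPM; log2 5.21 ± 0.98 SE, adjusted p = 3.92e-05).

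Within the GABA class, cells with and without a count of a receptor were compared for other genes. Among the 253 cells at equal depth, the 26 with a Lepr count had Calcr in 76.9% and Mc4r in 61.5%, against 30.8% and 27.3% of the 227 without one. They had Nts, the neurotensin gene, in 92.3% against 67.4%, Cartpt, which encodes the CART peptide, in 96.2% against 66.1%, and Nr3c1 in 80.8% against 58.1%. The 153 cells with a Nr3c1 count had Calcr in 50.3% against 13% of the 100 without one, Mc4r in 40.5% against 16%, Nts in 82.4% against 51.0% and Crh, the corticotropin-releasing hormone gene, in 45.8% against 22.0%. On the 13 plates with cells of both kinds, the share with Calcr and that with Mc4r was higher in the Nr3c1 cells on 12 plates each. GABA class cells lay below the peptide limits, yet at full depth 100% had a Hcrt count and 75.2% a Pmch count. Pooled Hcrt stood at 2214 CPM there. Whether counts of abundant peptide genes such as Nts or Cartpt arose in the same cells was not tested.

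Prlr went with other genes. The 55 GABA class cells with a Prlr count had Tac2, the neurokinin B gene, in 49.1% against 27.8% of the 198 without one, and this was higher on 9 of 12 plates. Their shares with Calcr (27.3% against 37.9%) and Mc4r (16.4% against 34.8%) were not higher, and Lepr was as frequent with Prlr as without (10.9% against 10.1%). Insr was found in 25.5% of cells with Prlr and 12.6% of cells without, higher on 8 of 12 plates. The 46 cells with a Pgr count had Nr3c1 in 78.3% against 56.5%, Nts in 89.1% against 65.7% and Calcr in 52.2% against 31.9%. Mc4r went the other way, with 23.9% against 32.4%, higher on 4 and lower on 8 of 13 plates. These pairs were read after the counts had been seen and cells of a plate share its preparation, so the shares stand as descriptions with no test.

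**Figure D4:**
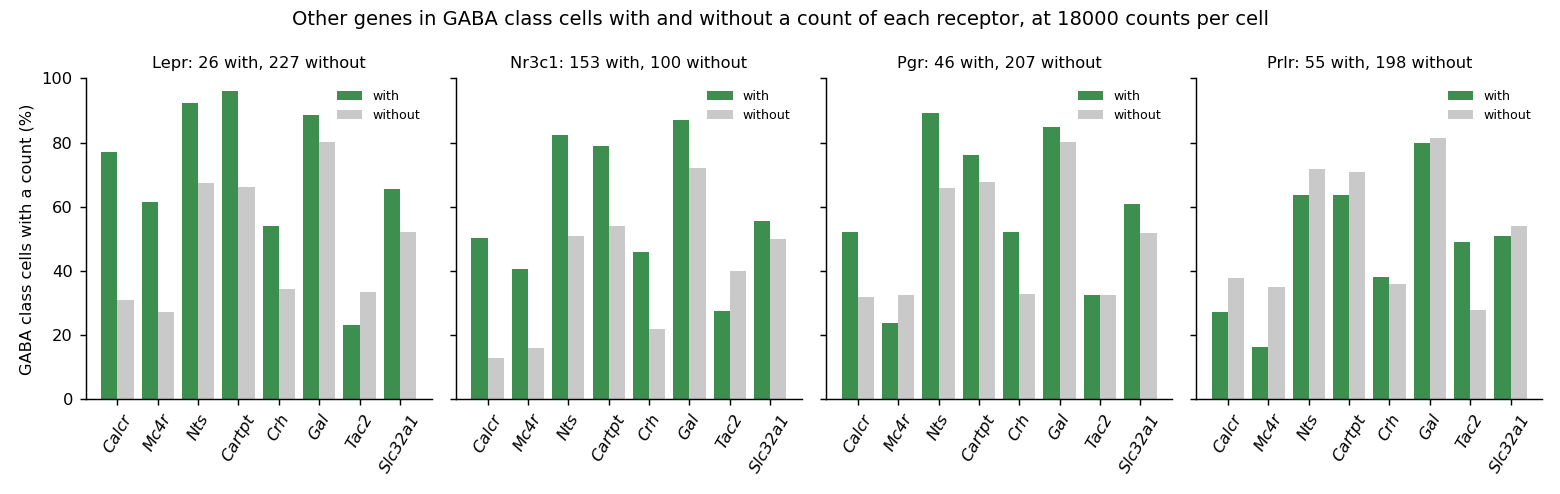
Percent of GABA class cells with a count of 8 other genes among cells with (green) and without (grey) a count of Lepr, Nr3c1, Pgr or Prlr, each cell thinned to 18000 counts; numbers of cells stand above each panel. Calcr was found in 76.9% of Lepr cells against 30.8% of the others, and Tac2 in 49.1% of Prlr cells against 27.8%.

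At equal depth the median number of the 9 receptors detected in a cell was 2 in each class, and the mean was 1.78 in Hcrt, 1.49 in Pmch, 2.06 in GABA and 2.196 in remaining class cells, and at least 3 were detected in 24.0%, 16.4%, 37.9% and 37.5% of them. None was detected in 10.7% of Hcrt, 19.4% of Pmch, 11.1% of GABA and 3.57% of remaining class cells. These counts are floors, since a transcript present in a cell can be missed at 18000 counts. The 18000 counts include Hcrt, at a median of 13.5% in the Hcrt class, and Pmch, at 17.7% in the Pmch class. Hcrt and Pmch class cells thus kept fewer counts of other genes, and the means were not taken without the peptide genes.

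The genes whose levels ran most like each receptor over the 56 plate and class sums were found among 7981 genes by Pearson's r of log2(CPM + 1), centred within plate. For Nr3c1 they were Cdh4 (r = 0.85), Serpine2 (0.83) and Tceal9 (0.83), and Serpine2 had a pooled level of 265 CPM in the GABA, 50.5 in the remaining, 7.67 in the Hcrt and 0.229 in the Pmch class, the same order as Nr3c1 with 152, 68.9, 26.3 and 8.23 CPM. For Prlr they were Atxn7l1, Nkain3 and Slit2 (each 0.75), with Slit2 at 38.6 CPM in the GABA, 31.0 in the remaining, 23.1 in the Pmch and 1.17 in the Hcrt class. For Ghr they were Eif1 (0.79), Ckap4 (0.74) and Rgs9 (0.72), of which Ckap4 and Rgs9 had 0.457 and 3.89 CPM in the Pmch class against 37.9 and 51.5 in the Hcrt class. Insr ran most like Mob2 (0.74), Fgf9 and Abhd6 (0.71 each), Pgr like Nhsl2 (0.73), Cnot6l (0.71) and Mgll (0.69), Adipor1 like Nhp2 (0.81), Gadd45g (0.76) and Farsb (0.73), and Adipor2 like Fam120b (0.82), Rptor (0.82) and Trnt1 (0.80). Between receptors, Lepr and Nr3c1 had r = 0.73, and Adipor1 and Adipor2 0.46. All points share 4 classes and a common set of plates, and small sums move together, so these values are descriptions.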

How the data were processed

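Single cells of the LHA were sequenced by Smart-SCRB, a plate method whose first read holds a well barcode and a molecular identifier. The deposited values are whole-number counts per gene and well. Per the submitters' processing notes, the authors used bcl2fastq 2.20, cutadapt 2.1.0, STAR and STARsolo 2.7.5c and Seurat 2.3.4 with GRCm38. The annotation release, the strand setting and the collapsing of identifiers are not given in the sources used here. Per the file headers, the authors also deposited the percent of spike-in counts of each well. Spike-in features took 3.83% of all counts and were left out.

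Summed counts of each class on each plate were compared in edgeR 4.0.16 (quasi-likelihood, TMM, plate as block, summed count of at least 20, at least 3 cells per plate and class), with Benjamini-Hochberg adjustment over all genes and a threshold of 0.05. DESeq2 1.42.0, other filters, scalings and depths were alternatives. TMM factors from genes of at least 1000 counts were added after the data were seen. Plate values were also compared by two-sided sign-flip permutation tests, 54 per measure, of which the pairs of the Pmch class with the GABA and remaining classes were added after the data were seen. The members and gene lists were chosen with earlier results of these data known. From each list up to 3 genes per comparison are named, those past the threshold with the largest log2 fold change of at least 1 in size, and likeness names the top 3 genes per receptor with at least 200 counts, among genes of at least 20 CPM in a class.

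On simulated counts with 200 changed genes, 4-fold changes were recovered in 95% of cases for GABA against Hcrt, 76% for Pmch against Hcrt, 54% for remaining against Hcrt and 53% for GABA against remaining. For 2-fold changes this was 48%, 44%, 10% and 5%, so differences of that size could be missed. The changed genes were drawn only from genes with more summed counts than the filter asks. These rates thus do not cover receptors with few counts, such as Ghsr. False calls made up 14.88%, 10.45%, 20% and 6.452% of calls, above the 5% aimed at, so adjusted p-values near 0.05 carry less weight.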

Additional observations from a re-analysis of the deposited data

Results flagged for a closer look

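In the remaining class 2 receptors had 1 plate far from the others among 10 plates. Replicate 18 held 15.1 CPM of Ghsr and 60.5 CPM of Pgr, where the median plate was at 0 for both. In all, 8 such groups were examined. A rate of about 1 in 20 flagged by chance holds for normally spread values only. Here 9 of the 10 plates were at 0 for Ghsr and 7 for Pgr, so that rate does not apply. The Ghsr value came from 3 counts in 1 cell.

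Wells labelled qRNA, whose content the labels do not state, were in no comparison and held receptor counts. Of these 68 wells 38.2% had a Ghr count, 42.6% a Nr3c1 count, 77.9% an Adipor1 count and 35.3% an Adipor2 count. In wells labelled ERCC or Empty these shares were 0%, 1.94%, 0.971% and 0.971%, leaving out the Empty well described next. Depth was unlike, with medians of 18251 counts in the qRNA wells, 155 in the ERCC wells and 197 in the Empty wells. Of the wells labelled Empty, 1 well, on replicate 15, had 5682 genes and 100707 counts, among them 77 of Nr3c1, 45 of Gad2 and 22 of Gad1.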

How the results depend on the processing

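Of 311 receptor results under other settings 296 kept their side of the threshold, 9 lost the call, 6 gained one and no called value changed sign. Results that were never called are among the 296, and a receptor that a setting's filter removed was not counted for that setting. Leaving out 1 plate at a time lost 2 of 383. Adipor2 lost its call in the GABA class in 1 fit over all classes (log2 -0.69, adjusted p = 0.0650), in thinned cells (-0.49, 0.149) and with cells between 0.2% and 1% of Hcrt or Pmch left out (-0.74, 0.106), beside -0.60 as reported, and in the Pmch class with at least 5 cells per plate (-0.79, 0.123) or in thinned cells (-0.77, 0.0894), beside -0.88; the cause was not tested. Genes called between GABA and Hcrt classes were 4842, and 3174 with the in-between cells left out. Between Pmch and Hcrt classes they were 4197, 2388 with filterByExpr and 2351 with at least 5 cells. Between remaining and Hcrt classes they were 2101, and 918 with DESeq2, 527 with filterByExpr, 1128 with no filter, 621 with the second TMM scaling, 723 with at least 5 cells, 3979 in 1 fit over all classes, 818 in thinned cells and 757 without the in-between cells. Between GABA and remaining classes they were 205, and 37 with filterByExpr, 126 with at least 5 cells, 1712 in 1 fit over all classes and 82 without the in-between cells. Leaving out 1 plate gave 4581 to 4790, 3830 to 4170, 1423 to 2047 and 133 to 241 calls in these 4 comparisons, the 133 without replicate 14. Without the replicate block, in which classes of 1 plate are paired, the calls were 5448, 4416, 2865 and 486; leaving it out added calls of Lepr and Nr3c1 between GABA and remaining classes and changed no other receptor call. At this depth Ghsr was below the filter on summed counts in 3 of the 4 comparisons and Lepr in 2.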
